A study of Mus musculus with 12 samples.

Results

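PPARα is a nuclear receptor of liver cells that binds DNA together with a retinoid X receptor and switches on genes for the uptake, activation and oxidation of fatty acids when fatty acids or fibrate drugs bind to it. It is known for its part in the liver's response to fasting. Some of its target genes respond so steeply that they serve as readouts of its activity in rodent liver. Followed here were 10 of its target genes, whether or not they are that steep: *Vnn1*, *Cyp4a10*, *Cyp4a14*, *Cyp4a31*, *Cyp4a32*, *Acot1*, *Acot3*, *Pdk4*, *Cd36* and *Fabp1*. They were taken by name from the tables of read counts, and all 10 were found among the 20093 genes listed in both tables, of 23391 genes listed in either. The list was chosen with the results of these same 12 livers known. Every difference of these 10 genes between the groups is therefore given as a description, without a p-value. Limma calls of these genes are counted below, but they are no independent test, since the choice used the same livers.

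The livers came from 12 male mice, 3 per group, and their whole RNA was sequenced in bulk. All carried a floxed allele of *Elavl1*, the gene of the RNA-binding protein HuR, on a C57BL/6N background. The WT controls had received AAV8-Tbg-null and the mice labelled HuRHep-/- had received AAV8-Tbg-Cre, a virus whose thyroxine-binding globulin promoter drives Cre in hepatocytes. The deposited labels give 4 to 6 months as the age of the injected mice, whereas the study's own methods describe younger mice from a cross with albumin-Cre animals. The livers were collected on normal chow or after 16 weeks of a high fat, cholesterol and fructose (HFCF) diet with 40 kcal% fat, 2% cholesterol and 20 kcal% fructose. The 2 diets were deposited as separate tables, so that diet cannot be told apart from table. Depth was even, with 30071731 to 35949203 counts per library. Levels are given as CPM, counts scaled to a library of 1000000 counts, with library size adjusted by TMM factors. A log2 difference is between means of log2 CPM with a pseudocount of 0.5, and its error is the standard error of the fit.

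The targeted gene went against its label. *Elavl1* stood at 30.9, 29.3 and 30.99 CPM in chow WT livers and at 42.8, 39.2 and 38.8 CPM in chow livers labelled HuRHep-/-. On HFCF it was 23.9, 24.2 and 27.0 CPM in WT livers and 32.4, 32.2 and 34.2 CPM in those labelled HuRHep-/-. In both diets every liver labelled HuRHep-/- was above every WT liver. The log2 difference was 0.41 ± 0.07 (SE, n = 3 per group; limma, Benjamini-Hochberg adjusted p = 0.0219) in chow and 0.38 ± 0.07 (limma, Benjamini-Hochberg adjusted p = 0.0327) in HFCF. The counts are sums over the whole gene and do not separate the floxed part from the rest. Whether the genotype labels were exchanged was not tested, and an exchange would turn every genotype direction below. Directions are those of livers labelled HuRHep-/- against livers labelled WT. The tissue matched its label, since the 11 listed hepatocyte markers, among them albumin and transthyretin, summed to between 62379 and 118450 CPM in every liver.

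Several of the genes are near-copies of one another. *Cyp4a10*, *Cyp4a31* and *Cyp4a32* lie side by side on chromosome 4 and encode fatty acid omega-hydroxylases, cytochrome P450 enzymes that oxidise the far end of a fatty acid. Over their coding sequences *Cyp4a10* was 96.6% identical to *Cyp4a31* and 97.2% identical to *Cyp4a32*. *Cyp4a14*, the fourth Cyp4a gene of the set, was only 76.7% identical to *Cyp4a10*. The stretch from coding base 601 to coding base 660 is shown for the 3 near-copies, because a sequencing read that falls here has very few bases by which it can be assigned. Capitals mark bases that differ from *Cyp4a10*, and the reference is GENCODE M21 on build GRCm38, plus strand.
Cyp4a10 (chr4:115524341-115524752): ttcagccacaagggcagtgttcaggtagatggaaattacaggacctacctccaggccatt
Cyp4a31 (chr4:115569802-115570213): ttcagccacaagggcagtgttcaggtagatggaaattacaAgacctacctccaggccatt
Cyp4a32 (chr4:115609720-115610480): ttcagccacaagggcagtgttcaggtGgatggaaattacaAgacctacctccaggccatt
*Cyp4a31* differed by 1 base and *Cyp4a32* by 2 bases in this stretch, which spans a splice junction. Cut into 31-base words, 45.5% of the *Cyp4a10* transcript, 33.0% of *Cyp4a31* and 65.3% of *Cyp4a32* occurred in transcripts of other genes. The acyl-CoA thioesterase genes on chromosome 12 also shared words with other genes. Of the *Acot1* words, 39.2% occurred elsewhere, most of them in *Acot2*, and of the *Acot3* words 23.4%. *Cyp4a14* had 2.07% and *Pdk4* 1.61% shared words, and *Vnn1*, *Cd36* and *Fabp1* had none. How the authors' counting treated reads that match more than one gene is not given in the sources used here, so the split among *Cyp4a10*, *Cyp4a31* and *Cyp4a32*, and the levels of *Acot1* and *Acot3*, are uncertain.

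The PPAR response element is a direct repeat of the half-site AGGTCA with 1 base between, here written AGGTCANAGGTCA. It was searched on both strands of the 300-base promoter windows of RefSeq on GRCm38.p6, from 250 bases before each start site. Windows were given for 6 of the 10 genes, namely *Cyp4a32*, *Cd36*, *Pdk4*, *Fabp1*, *Acot1* and *Acot3*. The closest matches, over the 12 fixed bases of the repeat, are shown with 25 bases on each side and the match in capitals, as they read on the strand of the gene.
Fabp1 (chr6:71199787-71199849, plus strand): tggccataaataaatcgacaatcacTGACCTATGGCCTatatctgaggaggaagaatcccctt
Cd36 (chr5:17835922-17835984, minus strand): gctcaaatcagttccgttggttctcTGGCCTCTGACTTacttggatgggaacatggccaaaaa
Cyp4a32 (chr4:115600816-115600878, plus strand): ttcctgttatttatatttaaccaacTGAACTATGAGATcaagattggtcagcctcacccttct
The *Fabp1* match had 1 mismatch and lay between bases -67 and -55 from the start site, and 0.554% of the 32841 windows held a match as good. That of *Cd36*, upstream of a start site that lies within the annotated span of the gene, had 2 mismatches between bases -63 and -51, as good as in 3.86% of windows. The *Cyp4a32* match and the best one of *Acot3* had 3 mismatches each, as did 24.6% of windows or better, which leaves them unremarkable among promoters. *Pdk4* and *Acot1* held no match within 3 mismatches in this window. All of these are matches of letters, and binding was not measured.

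The 10 genes spanned a wide range of levels. Per kilobase of exon, in chow WT livers, *Fabp1* was far ahead at 9195 ± 1082 CPM per kb (SD, n = 3), *Cyp4a10* followed at 190 ± 57.1 and *Cyp4a14* at 126 ± 95.9. *Vnn1* stood at 20.99 ± 2.29, *Cyp4a32* at 15.8 ± 2.93, *Acot1* at 14.4 ± 4.13 and *Cd36* at 11.4 ± 3.20 CPM per kb. *Acot3* at 5.23 ± 3.17, *Cyp4a31* at 3.06 ± 1.59 and *Pdk4* at 0.452 ± 0.152 CPM per kb closed the list. The neighbours from *Cyp4a10* to *Cyp4a14*, from *Cyp4a32* through *Acot1* to *Cd36*, and *Acot3* with *Cyp4a31* differed by less than the larger SD of the pair. All 10 passed the filter on low counts, although *Pdk4* rested on only 32 to 529 reads per library.

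**Figure D1:**
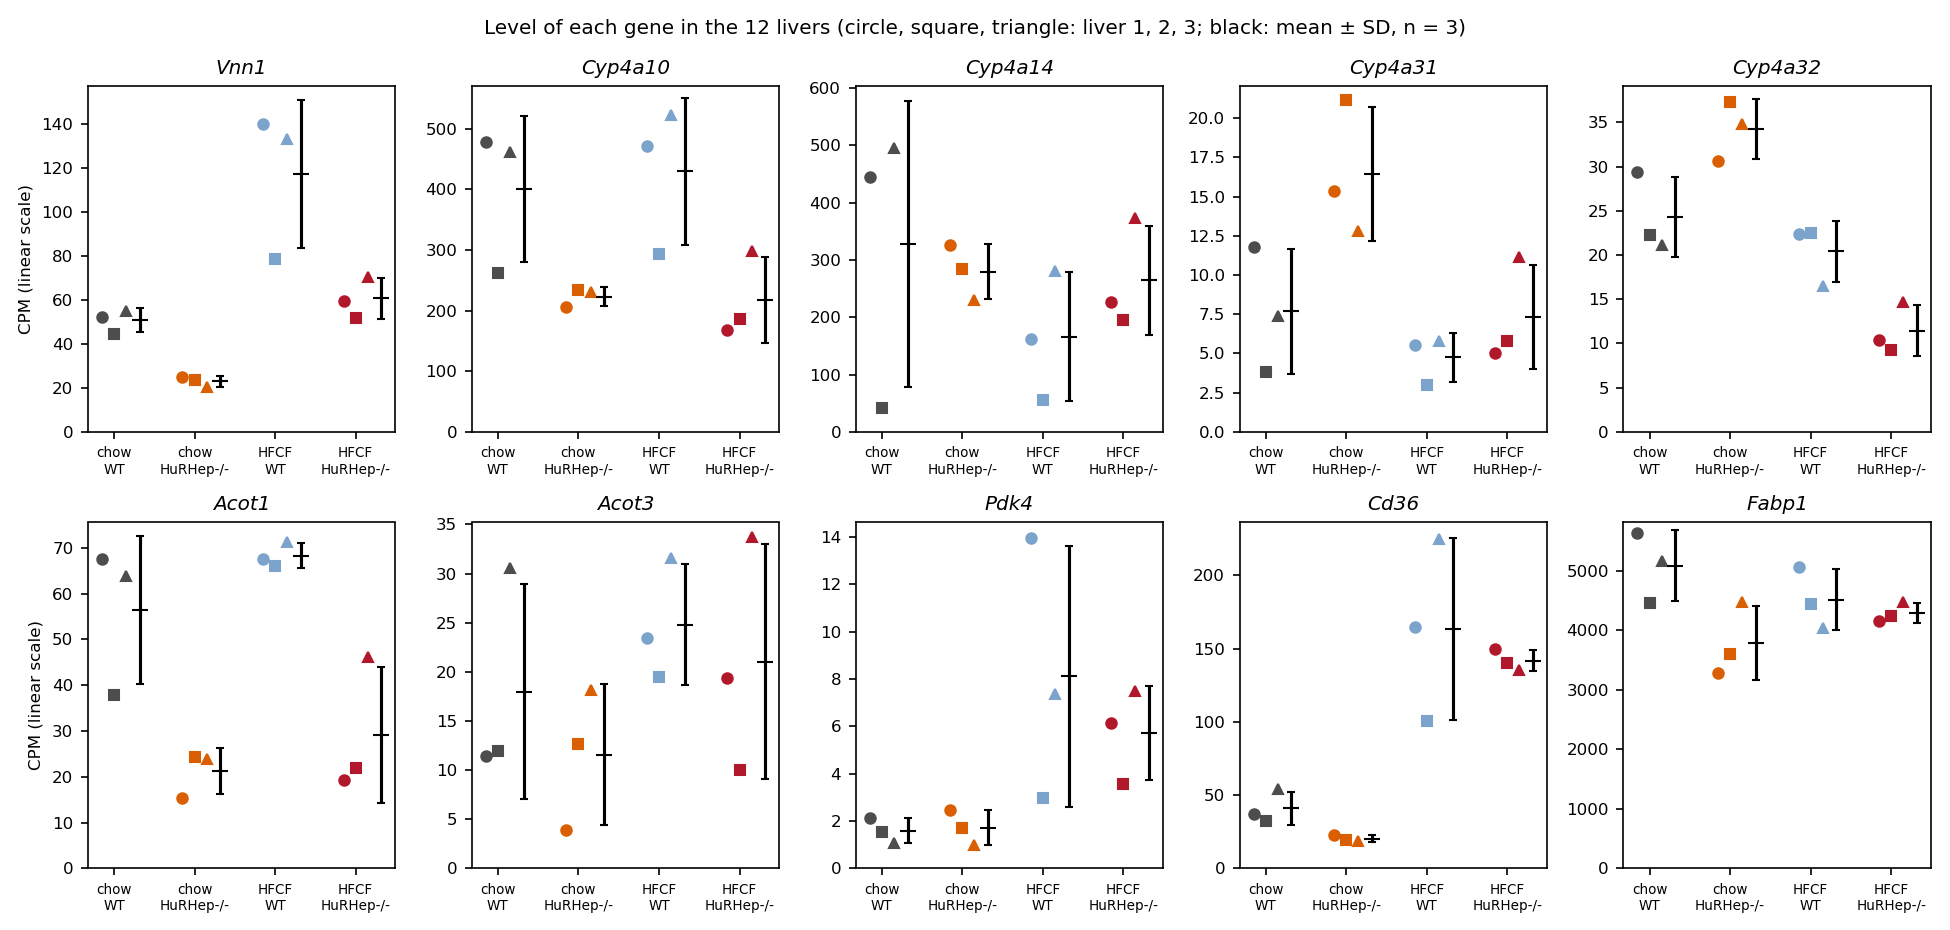
CPM of each of the 10 genes in every liver on a linear scale from 0, with 4 groups of 3 livers along each x axis (circle, square and triangle are livers 1, 2 and 3) and mean ± SD in black. *Vnn1* and *Acot1* were lower in all livers labelled HuRHep-/- than in WT livers of the same diet, and liver 2 of WT was the lowest for *Cyp4a14* in both diets (41.2 and 56.2 CPM).

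In the comparison of genotypes on chow, 6 of the 10 genes had a lower and 4 a higher mean log2 CPM in livers labelled HuRHep-/-. *Cyp4a14*, counted as higher, had the lower mean on the linear scale, at 280 CPM beside 328 CPM in WT livers, where liver 2 held 41.2 CPM. Their median log2 difference was -0.58, beside 0.01 over the 13526 genes tested. In HFCF, 8 were lower and 2 higher, with a median of -0.35, beside 0.00 over 14295 genes. A gene was called where its adjusted p from limma was at most 0.05, its fold change at least 1.5 and each group held at least 10 counts. On chow, 3 of the 10 were called, *Vnn1*, *Acot1* and *Cd36*, all lower, and 2.23% of all genes tested were called. On HFCF 2 were called, *Acot1* and *Cyp4a32*, both lower, beside 3.66% of all genes. The groups did not overlap for 6 of the 10 genes on chow, beside 29.3% of all genes, and for 3 of the 10 on HFCF, beside 36.2% of all genes. Nothing is read from these counts, since the genes were chosen on the same livers. They also depended on single livers. On chow the count was 0 without liver 2 labelled HuRHep-/-, 1 without WT liver 3 or without liver 1 labelled HuRHep-/-, and 5 without WT liver 2. On HFCF it was 0 without WT liver 1, without liver 1 or without liver 2 labelled HuRHep-/-, and 1 without WT liver 3 or without liver 3 labelled HuRHep-/-.

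*Vnn1* encodes vanin 1, a pantetheinase at the hepatocyte surface that releases cysteamine and returns pantothenate for coenzyme A. It lies on chromosome 10 (ENSMUSG00000037440, chr10:23894688-23905343, plus strand). Chow WT livers held 52.4, 44.5 and 55.2 CPM, and chow livers labelled HuRHep-/- held 25.1, 23.6 and 20.2 CPM. HFCF WT livers held 140, 78.5 and 133 CPM, and HFCF livers labelled HuRHep-/- held 59.6, 51.9 and 70.4 CPM. The genotypes did not overlap in either diet, and within each genotype the diets did not overlap. The log2 difference between genotypes was -1.14 ± 0.11 (SE, 3 livers per group) in chow, a level 2.20-fold lower, and -0.93 ± 0.23 in HFCF, a level 1.91-fold lower. Between diets it was 1.17 ± 0.19 in WT livers and 1.39 ± 0.19 in livers labelled HuRHep-/-. Chow livers labelled HuRHep-/- were thus lowest and HFCF WT livers highest, and chow WT livers overlapped with HFCF livers labelled HuRHep-/- in between. Left out one at a time, no liver moved the genotype difference outside -1.22 to -1.05 in chow and -1.20 to -0.77 in HFCF.

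*Cyp4a10* (ENSMUSG00000066072, chr4:115518264-115533649, plus strand), the most abundant of the near-copies, held 479, 262 and 461 CPM in chow WT livers and 205, 234 and 230 CPM in chow livers labelled HuRHep-/-. It held 472, 293 and 523 CPM in HFCF WT livers and 168, 186 and 298 CPM in HFCF livers labelled HuRHep-/-. WT livers were above on chow without overlap, whereas on HFCF the highest liver labelled HuRHep-/- passed the lowest WT liver. The log2 difference was -0.79 ± 0.21 in chow and -1.002 ± 0.27 in HFCF, and between diets it was 0.11 ± 0.27 in WT livers and -0.08 ± 0.27 in livers labelled HuRHep-/-. With 1 liver left out the diet differences ran from -0.17 to 0.36 and from -0.34 to 0.08, on both sides of 0.

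*Cyp4a31* (ENSMUSG00000028712, chr4:115563649-115579015, plus strand) went the other way on chow. It stood at 11.8, 3.85 and 7.39 CPM in chow WT livers and at 15.4, 21.1 and 12.8 CPM in chow livers labelled HuRHep-/-. In HFCF it was 5.52, 2.96 and 5.82 CPM in WT livers and 5.04, 5.78 and 11.1 CPM in livers labelled HuRHep-/-. The groups were apart on chow and overlapped on HFCF, with log2 differences of 1.22 ± 0.37 and 0.57 ± 0.36. Between diets the log2 difference was -0.61 ± 0.41 in WT livers and -1.23 ± 0.41 in livers labelled HuRHep-/-, and only the latter groups were apart.

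*Cyp4a32* (ENSMUSG00000063929, chr4:115600969-115621602, plus strand) changed its order between the diets. On chow it was 29.4, 22.3 and 21.1 CPM in WT livers and 30.6, 37.3 and 34.8 CPM in livers labelled HuRHep-/-, which were all higher. On HFCF it was 22.4, 22.4 and 16.5 CPM in WT livers and 10.3, 9.26 and 14.7 CPM in livers labelled HuRHep-/-, which were all lower. The log2 differences were 0.51 ± 0.13 and -0.87 ± 0.20, and they differed between the diets by -1.36 ± 0.26 on the log2 scale. The diet difference was -0.25 ± 0.18 in WT livers and -1.61 ± 0.18 in livers labelled HuRHep-/-, a level 3.04-fold lower. Most of its transcript words are shared with its neighbours, and how reads were split among these genes was not tested.

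Because reads of the 3 near-copies may not be told apart, their counts were also summed. The sum was 288 to 520 CPM in chow WT livers and 251.3 to 293 CPM in chow livers labelled HuRHep-/-, and 318 to 545 CPM in HFCF WT livers and 183 to 324 CPM in HFCF livers labelled HuRHep-/-. The log2 difference of the sum between genotypes was -0.61 ± 0.20 in chow and -0.97 ± 0.27 in HFCF, in the direction of *Cyp4a10*. Its difference between diets was 0.08 ± 0.27 in WT livers and -0.26 ± 0.27 in livers labelled HuRHep-/-. *Cyp4a10* made up 90.9% to 94.2% of the sum in chow WT livers and 80.0% to 82.8% in chow livers labelled HuRHep-/-. In HFCF its share was 92.0% to 95.9% in WT livers and 91.6% to 92.5% in livers labelled HuRHep-/-. The chow livers labelled HuRHep-/- therefore stood apart from the other 9 in the makeup of the sum, with *Cyp4a32* at 12.2% to 12.8% of it, beside 3.02% to 7.74% in the other 9 livers.

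*Cyp4a14* (ENSMUSG00000028715, chr4:115486200-115496142, minus strand), a further fatty acid omega-hydroxylase gene of the same cluster and with few shared words, was spread widely in WT livers. It held 445, 41.2 and 496 CPM in chow WT livers, and 326, 284 and 230 CPM in chow livers labelled HuRHep-/-. It held 162, 56.2 and 281 CPM in HFCF WT livers, and 226, 195 and 373 CPM in HFCF livers labelled HuRHep-/-. Liver 2 was the lowest WT liver in both diets, and the groups overlapped in all comparisons. The log2 difference between genotypes was 0.41 ± 0.84 in chow and 0.88 ± 0.55 in HFCF. Without WT liver 2 the chow difference turned to -0.75, and the HFCF difference dropped to 0.24, whereas without WT liver 3 the chow difference was 1.04. The direction of *Cyp4a14* in chow thus rested on 1 liver. Between diets the log2 difference was -0.61 ± 0.81 in WT livers and -0.12 ± 0.81 in livers labelled HuRHep-/-, and with 1 liver left out the WT value ran from -1.78 without chow WT liver 2 to 0.03 without HFCF WT liver 2. Without both of these livers, a setting added after the values were seen, it was -1.14.

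**Figure D2:**
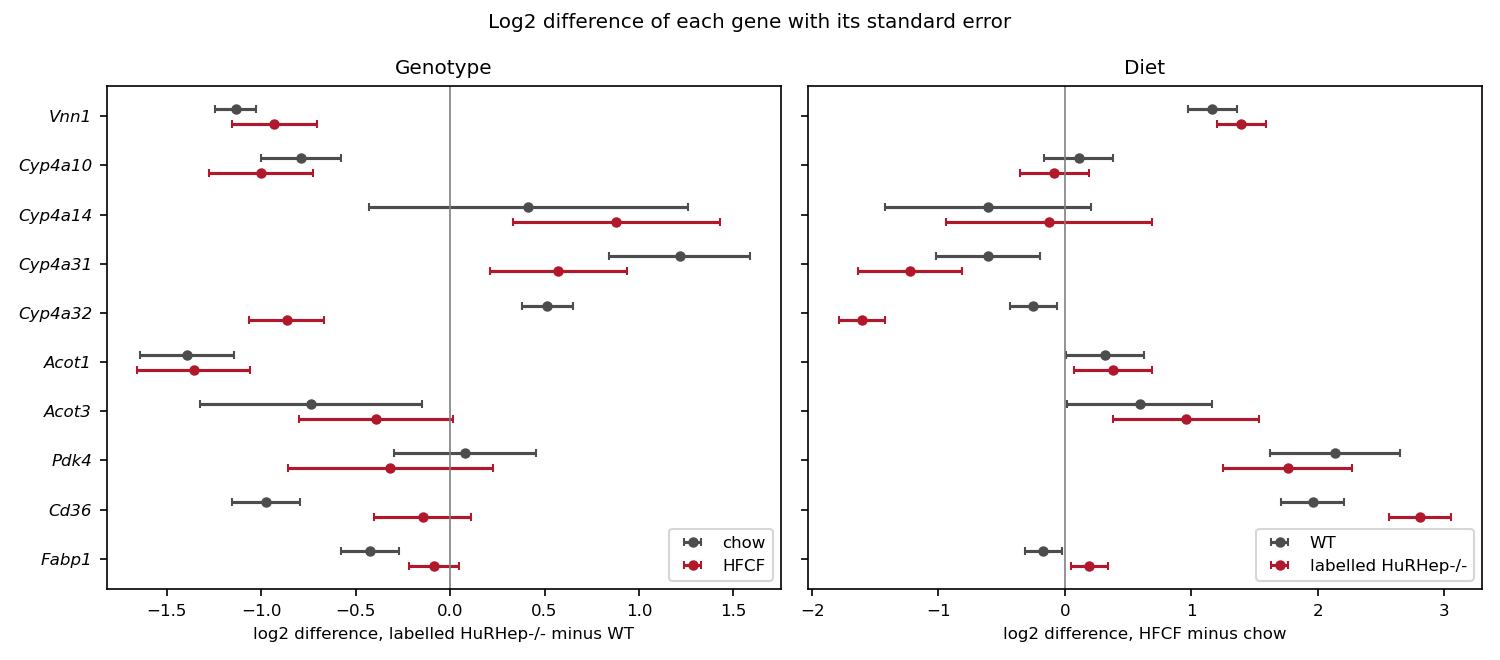
Log2 difference of each gene with its standard error as a horizontal bar, for livers labelled HuRHep-/- minus WT within each diet (left) and for HFCF minus chow within each genotype (right). In the genotype panel *Vnn1*, *Cyp4a10*, *Acot1*, *Acot3*, *Cd36* and *Fabp1* lay to the left of 0 in both diets, *Cyp4a14* and *Cyp4a31* lay to the right and *Cyp4a32* and *Pdk4* changed sides, and the diet differences of *Cd36* and *Pdk4* were 1.76 or more in both genotypes.

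*Acot1* encodes a cytosolic acyl-CoA thioesterase, which splits fatty acyl-CoA into free fatty acid and coenzyme A. It lies on chromosome 12 (ENSMUSG00000072949, chr12:84009490-84018371, plus strand). It held 67.5, 37.9 and 63.9 CPM in chow WT livers and 15.4, 24.3 and 23.9 CPM in chow livers labelled HuRHep-/-. It held 67.6, 66.0 and 71.4 CPM in HFCF WT livers and 19.3, 21.9 and 46.2 CPM in HFCF livers labelled HuRHep-/-. WT livers were above in both diets without overlap. The log2 difference between genotypes was -1.39 ± 0.25 in chow, 2.62-fold lower, and -1.36 ± 0.30 in HFCF, 2.56-fold lower. Between diets the groups overlapped, with differences of 0.32 ± 0.31 in WT livers and 0.38 ± 0.31 in livers labelled HuRHep-/-. With 1 liver left out these diet differences ran from 0.06 to 0.47 and from -0.01 to 0.62. *Acot2*, the mitochondrial thioesterase with which *Acot1* shares 29.2% of its words, did not show the genotype difference: its log2 difference was -0.17 in chow and 0.36 in HFCF, and neither was called.

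*Acot3* (ENSMUSG00000021228, chr12:84052144-84060402, plus strand), a peroxisomal thioesterase gene, was spread too widely to order the groups. It ranged from 11.4 to 30.6 CPM in chow WT livers and from 3.88 to 18.2 CPM in chow livers labelled HuRHep-/-. In HFCF it ranged from 19.4 to 31.6 CPM in WT livers and from 10.03 to 33.7 CPM in livers labelled HuRHep-/-. The log2 difference between genotypes was -0.74 ± 0.59 in chow and -0.39 ± 0.41 in HFCF, and without HFCF liver 2 labelled HuRHep-/- the latter was 0.06. With 1 liver left out the chow value ran from -1.19 to -0.09, the latter without liver 1 labelled HuRHep-/-.

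*Pdk4* encodes pyruvate dehydrogenase kinase 4, which holds back the use of glucose when fatty acids are burnt, and it lies on chromosome 6 (ENSMUSG00000019577, chr6:5483351-5496309, minus strand). It was scarce on chow, at 2.14, 1.54 and 1.08 CPM in WT livers and 2.46, 1.70 and 0.985 CPM in livers labelled HuRHep-/-. On HFCF it was 14.0, 2.99 and 7.37 CPM in WT livers and 6.13, 3.58 and 7.49 CPM in livers labelled HuRHep-/-. Every HFCF liver was above every chow liver of its genotype, and the genotypes overlapped in both diets. The diet difference was 2.14 ± 0.51 on the log2 scale in WT livers and 1.76 ± 0.51 in livers labelled HuRHep-/-. With 1 liver left out, the WT value ran from 1.61 without HFCF liver 1 to 2.72 without HFCF liver 2. That of livers labelled HuRHep-/- ran from 1.41 to 2.07, and *Pdk4* was called there in 3 of 6 such fits. The genotype difference was 0.08 ± 0.38 in chow and -0.32 ± 0.54 in HFCF, and single livers turned both. In chow it was -0.17 without WT liver 3 and -0.23 without liver 1 labelled HuRHep-/-, and in HFCF 0.22 without WT liver 1 and -0.91 without WT liver 2. *Pdk4* also responds to fasting and glucocorticoids, and of the 14 genes of fasting and feeding 4 were called between diets in WT livers, 28.6% beside 9.41% of all genes, and 6 in livers labelled HuRHep-/-, 42.9% beside 19.1%, all higher. Their part in the *Pdk4* values was not tested.

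*Cd36* encodes a membrane receptor that takes up long-chain fatty acids, and macrophages, endothelial cells and fat cells express it beside hepatocytes. It lies on chromosome 5 (ENSMUSG00000002944, chr5:17781690-17888801, minus strand). It held 36.8, 32.0 and 53.9 CPM in chow WT livers and 22.8, 19.1 and 18.9 CPM in chow livers labelled HuRHep-/-. It held 165, 101 and 225 CPM in HFCF WT livers and 149.5, 140.5 and 136 CPM in HFCF livers labelled HuRHep-/-. On chow WT livers were above without overlap, and on HFCF the livers labelled HuRHep-/- fell within the WT range. The log2 difference between genotypes was -0.97 ± 0.18 in chow and -0.15 ± 0.26 in HFCF, and the latter turned to 0.13 without WT liver 3. Between diets the log2 difference was 1.96 ± 0.25 in WT livers, a level 3.89-fold higher, and 2.81 ± 0.25 in livers labelled HuRHep-/-, a level 7.01-fold higher and the largest difference among the 10 genes there. In bulk liver a change in the number of cells of a type and a change in RNA per cell cannot be told apart.

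The other cell types that express *Cd36* moved with it in part. The 20 macrophage markers summed to 270 to 353 CPM in chow WT livers and 354 to 520 CPM in chow livers labelled HuRHep-/-, opposite to *Cd36*. They summed to 412 to 744 CPM in HFCF WT livers and 741 to 987 CPM in HFCF livers labelled HuRHep-/-, and between diets 10 of 20 were called in WT livers, beside 9.41% of all genes, and 15 of 20 in livers labelled HuRHep-/-, beside 19.1%, all higher. The 15 endothelial markers summed to 205 to 282 CPM on chow and 248 to 294 CPM on HFCF. The 7 adipocyte markers summed to 16.0 to 27.8 CPM on chow and 89.6 to 412 CPM on HFCF. Of these 7, 3 could be tested, and between diets 3 were called higher in WT livers and 1 in livers labelled HuRHep-/-, with a median log2 difference of 7.10 and 7.88. Of the defining markers, *Adipoq* and *Lep* stayed under 0.1 CPM in every liver, *Plin1* in all groups but HFCF livers labelled HuRHep-/-, and *Retn* in all groups but HFCF WT livers. The 11 stellate cell and cholangiocyte markers summed to 178 to 266 CPM on chow, 211 to 402 CPM in HFCF WT livers and 423 to 571 CPM in HFCF livers labelled HuRHep-/-. The 5 listed skeletal muscle markers stayed at 1.22 CPM or less in sum. The part of these cells in the *Cd36* values was not tested.

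*Fabp1* encodes the liver fatty acid binding protein, the main carrier of fatty acids in hepatocyte cytosol, and it lies on chromosome 6 (ENSMUSG00000054422, chr6:71199827-71205023, plus strand). It held 5637, 4449 and 5168 CPM in chow WT livers and 3285, 3600 and 4470 CPM in chow livers labelled HuRHep-/-. It held 5058, 4445 and 4040 CPM in HFCF WT livers and 4152, 4240 and 4473 CPM in HFCF livers labelled HuRHep-/-. The groups overlapped in all comparisons, and the log2 difference between genotypes was -0.43 ± 0.15 in chow and -0.08 ± 0.13 in HFCF. Between diets it was -0.17 ± 0.15 in WT livers and 0.19 ± 0.15 in livers labelled HuRHep-/-. The hepatocyte markers in sum, to which albumin contributes heavily, were 97200 to 118450 CPM in chow WT livers and 78759 to 86532 CPM in chow livers labelled HuRHep-/-, and 70844 to 76488 CPM and 62379 to 66512 CPM on HFCF. Their part in the *Fabp1* values was not tested.

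Across the diets, 3 of the 10 genes were called in WT livers, *Cd36*, *Pdk4* and *Vnn1*, all higher on HFCF, and 9.41% of all genes tested were called. In livers labelled HuRHep-/- 5 were called, the same 3 higher and *Cyp4a31* and *Cyp4a32* lower, beside 19.1% of all genes. With 1 liver left out the 3 calls in WT livers held in 6 of 6 fits. In livers labelled HuRHep-/- no such fit kept all 5 calls, and the count was 3 without HFCF liver 1 and 4 in each of the other fits. There *Vnn1*, *Cd36* and *Cyp4a32* were called in 6 of 6 fits, *Pdk4* in 3 and *Cyp4a31* in 2. The groups did not overlap for 3 of 10 genes in WT livers, beside 37.6% of all genes, and for 5 of 10 in livers labelled HuRHep-/-, beside 54.6%. As for genotype, nothing is read from these counts and calls, since the 10 genes were chosen on the same livers. The 4 comparisons share livers and are not independent of each other. The difference of the genotype effect between diets was called for none of the 10 genes and for 0% of the 14535 genes of both tables (limma, Benjamini-Hochberg), while 2083 genes had an unadjusted p under 0.05, and limma with voom weights called 1 gene.

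In the WT groups most of the 10 genes were lowest in liver 2. In chow WT, liver 2 was the lowest for 7 of the 10 genes, and in HFCF WT, liver 2 was the lowest for 8 of the 10. Of the livers labelled HuRHep-/-, no single liver on chow was lowest for more than 5 genes, and on HFCF liver 2 was lowest for 5. Taken over the 12 livers as deviations from the mean of each group, 19 of the 45 pairs of genes had a Pearson r above 0.5 and 4 had an r below 0, with a median of 0.42. The highest were *Cyp4a10* with *Cyp4a31* at 0.92, genes that share transcript words, and *Cyp4a10* with *Cyp4a14* at 0.87, genes that hardly do. *Vnn1* had an r of 0.82 with *Pdk4*, 0.76 with *Cyp4a10* and with *Cd36*, and 0.04 with *Fabp1*. All points of a pair come from the same 12 libraries and share their scaling, and 12 livers in 4 groups leave few independent points. Without subtracting the group means the median r was 0.21. Neither the counts of lowest livers nor the median r were computed for other sets of genes, so nothing particular to these 10 is read from them.

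**Figure D3:**
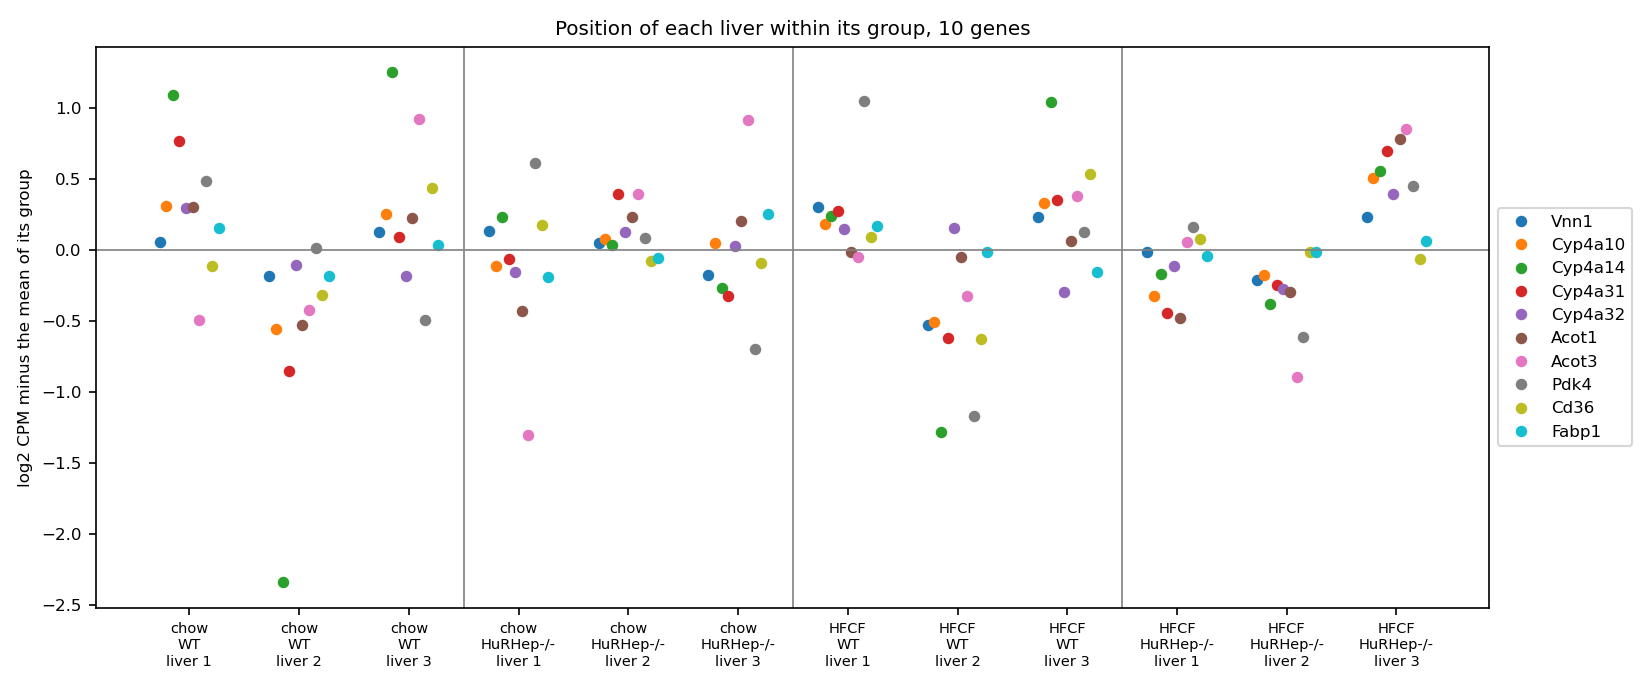
Log2 CPM of each gene in each liver minus the mean of that liver's group, with the 12 livers along the x axis and 1 colour per gene. In WT liver 2 most genes lay below 0 in both diets, with *Cyp4a14* lowest at -2.34 in chow and -1.28 in HFCF.

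Among the genes whose pattern over the 12 livers was most like that of *Vnn1* were *Tmem134* (Pearson r 0.96), *H2-Q10*, *Pla2g6* and *Impact* (0.95). Those most like *Cd36* were *Ctsd* (0.99), *Capns1*, *Plscr2*, *Aldh3a2* and *Fitm1* (0.98). *Ctsd* encodes cathepsin D, a lysosomal protease, *Aldh3a2* a fatty aldehyde dehydrogenase and *Fitm1* a protein of lipid droplet formation. Those most like *Cyp4a14* were *Gm17344* (0.88), *Col4a3bp*, *Snx16*, *Fam117a* and *Dnase2a* (0.83). These r values are over the 12 livers, groups included, among all genes that passed the filter. Taken as deviations from the group means, the r was 0.50 to 0.72 for the genes named beside *Vnn1*, 0.65 to 0.93 for those beside *Cd36* and 0.85 to 0.92 for those beside *Cyp4a14*.

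Further target genes of PPARα were taken from a list of 58, of which 56 were tested. They cover mitochondrial and peroxisomal fatty acid oxidation, ketogenesis, lipid droplets and fatty acid transport. In chow livers labelled HuRHep-/- 3 were lower and 1 higher, and 7.14% of the list was called beside 2.23% of all genes. Their median log2 difference was -0.12, beside 0.01 over all genes, and 42 of 56 had a negative estimate. Those lower were *G0s2*, an inhibitor of the lipase ATGL (log2 difference -1.17 ± 0.15; limma, Benjamini-Hochberg adjusted p = 0.0110), *Acaa1b*, a peroxisomal thiolase (-0.81 ± 0.12), and *Ehhadh*, the peroxisomal bifunctional enzyme (-0.66 ± 0.07; adjusted p = 0.00756). *Ucp2*, a mitochondrial carrier that macrophages also express, was higher (0.80 ± 0.16). The count was 2 without WT liver 1, without WT liver 3 or without liver 1 labelled HuRHep-/-, and 1 without liver 2 labelled HuRHep-/-.

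In HFCF livers labelled HuRHep-/- 7 of the 56 were lower and 0 higher, which is 12.5% of the list beside 3.66% of all genes. The median log2 difference was -0.25, beside 0.00 over all genes, and 47 of 56 had a negative estimate. In the same comparison 20 of 20 macrophage markers and 10 of 11 stellate cell and cholangiocyte markers had a positive estimate, with median log2 differences of 0.65 and 0.86. The summed hepatocyte markers were 62379 to 66512 CPM, beside 70844 to 76488 CPM in WT livers. On chow, 19 of 20 macrophage markers had a positive estimate (median 0.44), whereas 8 of 11 stellate cell and cholangiocyte markers had a negative one (median -0.23). The hepatocyte sum was also lower on chow, and the median log2 difference of its 11 genes was -0.07 in chow and -0.11 in HFCF. Of 15 endothelial markers, 3 had a positive estimate in chow and 9 in HFCF. In each diet 0 of 20 macrophage and 1 of 11 hepatocyte markers were called, beside 2.23% of all genes in chow and 3.66% in HFCF. The part of these cells in the values of the target genes was not tested. *Pex11a*, a factor of peroxisome division, differed by -0.83 ± 0.18 (limma, Benjamini-Hochberg adjusted p = 0.0448), *Retsat*, a retinol saturase, by -0.76 ± 0.09, and *Acsl1*, which activates fatty acids to acyl-CoA, by -0.75 ± 0.13. The count of 7 became 0 without WT liver 1, without liver 1 labelled HuRHep-/- or without liver 2 labelled HuRHep-/-. At an unadjusted p under 0.05, 24 of the 56 were lower and 1 higher, and limma with voom weights called 7 lower and 0 higher. Whether the list differs from other genes was not tested.

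Between diets, 12 of the 56 were higher and 0 lower in WT livers (25 and 7 at an unadjusted p under 0.05 from limma, 11 and 0 with voom weights), 21.4% of the list beside 9.41% of all genes, and 14 were higher and 3 lower in livers labelled HuRHep-/-, 30.4% beside 19.1%. In the latter livers 20 were higher and 16 lower at an unadjusted p under 0.05 from limma, and the median log2 difference of the list was 0.06, beside 0.16 in WT livers. Of 11 stellate cell and cholangiocyte markers 1 was called higher in WT livers and 11 in livers labelled HuRHep-/-. Of 20 macrophage markers 10 and 15 were called higher, and of 15 endothelial markers 0 and 3. All 11 hepatocyte markers had a negative estimate in both genotypes. The part of these cells in the diet values of the list was not tested. *Cidec*, a lipid droplet protein that the fatty liver makes, went from 4.57 ± 1.05 to 125 ± 79.3 CPM (SD, n = 3) in WT livers and from 2.69 ± 0.809 to 107 ± 8.75 CPM in livers labelled HuRHep-/-. Its WT livers spanned 33.6 to 177 CPM on HFCF, and the log2 difference of *Cidec* there was 4.46, and 5.25 without HFCF WT liver 2. *Fabp2* rose by a log2 difference of 1.77 ± 0.13 in WT livers (limma, Benjamini-Hochberg adjusted p = 4.1e-05) and by 1.87 ± 0.13 in livers labelled HuRHep-/- (adjusted p = 2.8e-05). The hormone gene *Fgf21* rose by 1.84 ± 0.35 in WT livers and *Fabp4*, also a gene of fat cells and macrophages, by 1.35 ± 0.39 (1.97 without HFCF WT liver 2). *Acot2* was called higher in WT livers too, at 1.10 ± 0.21, whereas *Vldlr*, a lipoprotein receptor, was not called there, at 1.17 ± 0.45. In livers labelled HuRHep-/- *Vldlr* rose by 2.79 ± 0.45 and *Acot2* by 1.64 ± 0.21, and *Fgf21* (1.54 ± 0.35) and *Fabp4* (1.48 ± 0.39) were called higher as well. The genes that fell there were *Cyp4a12a* at -1.79 ± 0.49 (-1.11 without HFCF liver 1 labelled HuRHep-/-), *Cyp4a12b* at -1.56 ± 0.35 and *Eci2*, an enoyl-CoA isomerase, at -0.61 ± 0.13. *Cyp4a12a* and *Cyp4a12b*, near-copies of each other that are known for higher levels in males, thus fell beside *Cyp4a31* and *Cyp4a32*.

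**Figure D4:**
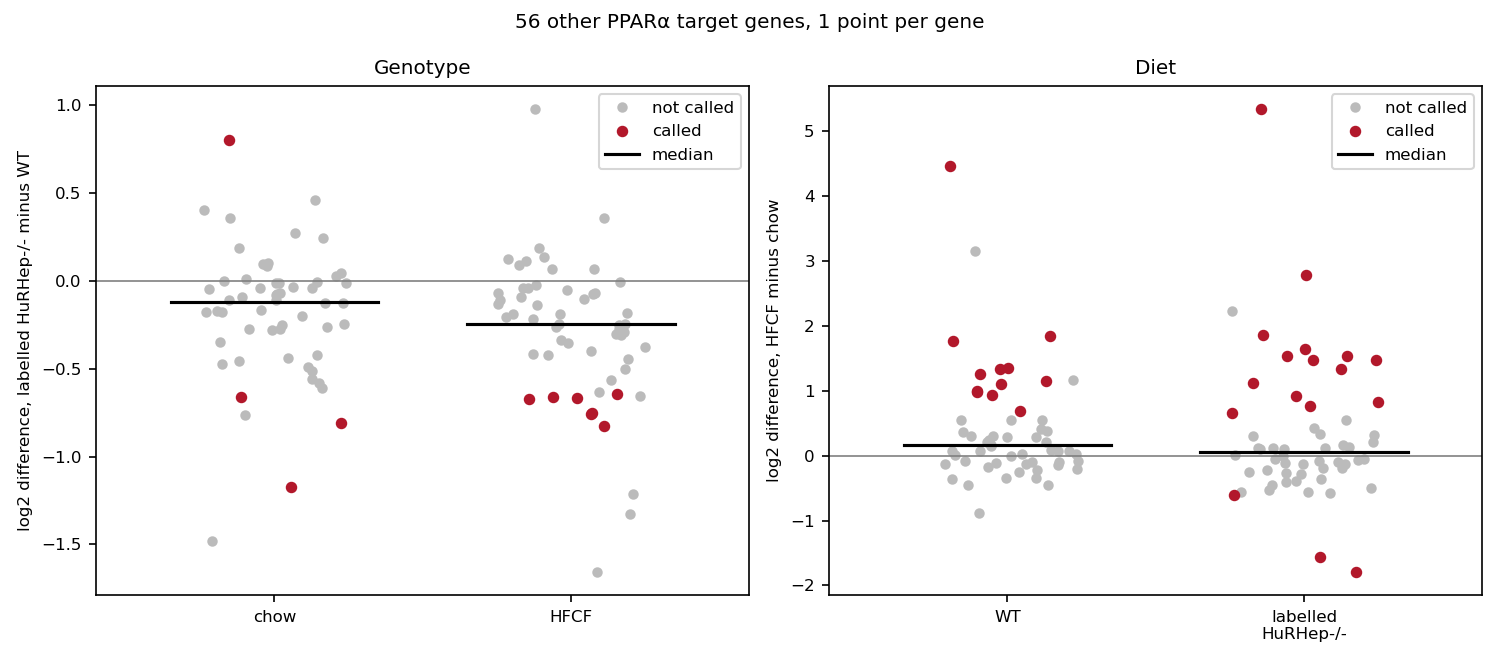
Log2 difference of the 56 other PPARα target genes, 1 point per gene, between genotypes within each diet (left) and between diets within each genotype (right), with called genes in red and the median as a black line. Most points of the genotype panel lie below 0, with medians of -0.12 in chow and -0.25 in HFCF, and the called genes of the diet panel lie above 0 apart from 3 in livers labelled HuRHep-/-.

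Of the 16 receptor and cofactor genes, limma called 0 for genotype in either diet, beside 2.23% of all genes in chow and 3.66% in HFCF, as did limma with voom weights, while 6 in chow and 1 in HFCF had an unadjusted p under 0.05. *Ppara* held 31.2, 32.4 and 32.1 CPM in chow WT livers and 33.7, 37.5 and 35.8 CPM in chow livers labelled HuRHep-/-, a log2 difference of 0.17 ± 0.07 (limma, Benjamini-Hochberg adjusted p = 0.193). On HFCF it held 49.0, 52.5 and 43.1 CPM in WT livers and 39.1, 41.3 and 41.6 CPM in livers labelled HuRHep-/-, a log2 difference of -0.26 ± 0.09 (adjusted p = 0.107). Every liver labelled HuRHep-/- was above WT on chow and below WT on HFCF, and 14.8% and 17.5% of all genes were apart in these directions. Between diets *Ppara* rose by 0.59 ± 0.07 in WT livers (adjusted p = 0.000653), just past the fold limit, which it missed without chow WT liver 1, HFCF WT liver 1 or HFCF WT liver 2, while in livers labelled HuRHep-/- the difference was 0.19 ± 0.07 (adjusted p = 0.0636).

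Of the partners, *Rxra*, the retinoid X receptor most abundant in liver, differed by 0.25 ± 0.07 in chow and 0.01 ± 0.09 in HFCF, and *Rxrb* by -0.14 ± 0.11 and -0.09 ± 0.09. *Rxrg* differed by 0.82 ± 0.21 in chow, where every liver labelled HuRHep-/- was above every WT liver but the gene was not called (limma, Benjamini-Hochberg adjusted p = 0.0732), and by -0.07 ± 0.15 in HFCF. It was higher on HFCF in WT livers (0.91 ± 0.19; limma, Benjamini-Hochberg adjusted p = 0.00651). *Pparg*, the fat cell receptor that fatty liver also makes, rose on HFCF by 1.12 ± 0.25 in WT livers (adjusted p = 0.00790) and by 1.10 ± 0.25 in livers labelled HuRHep-/- (adjusted p = 0.00513), and *Ppard* had diet differences of 0.39 ± 0.13 and 0.53 ± 0.13, under the fold limit. The coactivator *Ppargc1a* fell on HFCF by 0.91 ± 0.28 in livers labelled HuRHep-/- (adjusted p = 0.0241), and in chow it differed between genotypes by 0.86 ± 0.21 without being called (adjusted p = 0.0664). With 1 liver left out its diet difference there ran from -1.18 to -0.58, and its chow genotype difference from 0.60 to 1.02. The log2 difference of *Lpin1* between genotypes was -0.55 ± 0.59 in chow and -0.39 ± 0.68 in HFCF, and with 1 liver left out it ran from -1.25 to 0.05 and from -0.98 to 0.32. Log2 differences between genotypes were within -0.18 to 0.25 for the cofactors *Ppargc1b*, *Med1*, *Ncoa1*, *Ncoa2*, *Crebbp* and *Ep300* and the corepressor *Ncor1*, in both diets. With 1 liver left out, *Ppargc1b* ran from -0.45 to -0.04 in chow and from 0.00 to 0.41 in HFCF.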

How the data were processed

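Livers of 12 male mice were analysed, 3 in each of 4 groups taken from the deposited labels. The authors aligned stranded RNA-seq reads in CLC Genomics Workbench to the RefSeq annotation of GRCm38.p6 and deposited raw read counts per gene in 1 table per diet, whole numbers without normalization, written as text with commas. The commas were removed, which left whole numbers. On these, limma (version 3.58.1, R 4.3.3) on log2 CPM was used in place of a count model, with a pseudocount of 0.5 and TMM factors computed here (trims 0.3 and 0.05). Low genes were removed, keeping those with 15 counts summed over the fit that passed, in 3 or more libraries, the CPM to which 10 counts correspond at median depth. Genotype was fitted within each diet on 6 libraries, and diet and the interaction on all 12 libraries. P-values were adjusted by Benjamini-Hochberg over all genes of a fit. The fits were tested on simulated data. Nothing in the labels says that livers of a group came from separate litters or days, so p-values measure the spread between these livers. The 10 genes, the lists and the alternatives were chosen with earlier results of these data known, and the 10 genes receive no p-value. Named by rule were these 10 genes, the receptors and cofactors, per comparison up to 4 called other targets in each direction by size of difference, the 5 genes most correlated with *Vnn1*, *Cyp4a14* and *Cd36*, and *Elavl1*. Named after their values were seen were *Acot2* in the genotype comparisons, *Acot2* and *Vldlr* for diet in WT livers, and *Fgf21* and *Fabp4* for diet in livers labelled HuRHep-/-. A few genes that this rule names are not reported here. Further lists of clock genes and of genes of fasting and feeding were read as counts. Of the clock genes, limma called 0 of 12 in chow (beside 2.23% of all genes) and 1 of 12, lower, in HFCF (beside 3.66%) for genotype, and 0 of 13 for diet in WT livers (beside 9.41%) and in livers labelled HuRHep-/- (beside 19.1%). At an unadjusted p under 0.05 these counts were 2, 2, 2 and 4, and with voom weights 0, 1, 0 and 0. Gene positions, shared words and coding identity came from GENCODE M21 and promoter windows from RefSeq. Alternatives covered scaling, filter, pseudocount, voom weights, a replicate block, libraries in the fit, the fold limit and each liver left out.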

Additional observations from a re-analysis of the deposited data

Results flagged for a closer look

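*Cyp4a32* and *Ppara* were singled out because every liver labelled HuRHep-/- was above every WT liver on chow and below every WT liver on HFCF. Of all genes tested, 14.8% were higher without overlap on chow and 17.5% were lower without overlap on HFCF. The share of genes with both was not counted, so nothing is read from the separation itself. For *Cyp4a32* the genotype difference changed by -1.358 on the log2 scale from chow to HFCF (SE 0.26). It is one of the 10 genes chosen on these livers, so no p-value is given for this change, which limma did not call. Under the alternatives it ran from -1.56 to -1.22. Of its 31-base transcript words, 65.3% occur in other genes, mostly *Cyp4a10* and *Cyp4a31*, and the log2 difference of the summed level of these 3 genes was -0.61 in chow and -0.97 in HFCF. The part of the shared words in the change was not tested. For *Ppara* the change was -0.3999 on the log2 scale (SE 0.11), and the interaction did not pass (limma, Benjamini-Hochberg adjusted p = 0.167).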

How the results depend on the processing

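With no fold change limit, the genes called rose from 302 to 562 for genotype in chow, from 523 to 965 in HFCF, from 1368 to 3434 for diet in WT and from 2772 to 5566 in livers labelled HuRHep-/-, and the other PPARα targets called rose to 10, 13, 25 and 31. The interaction, with 0 genes, had 1 gene without the low-count filter and 1 with voom weights. Of the 10 genes, 2 were called for genotype in HFCF, 0 with upper-quartile factors, 1 with at least 10 counts in every library and 4 in the fit on all 12 libraries. The cause of these shifts was not tested, apart from the removed fold limit.

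With each liver left out in turn, all genes called ran from 8 to 320 for genotype in chow (8 without liver 2 labelled HuRHep-/-), from 28 to 848 in HFCF, from 850 to 1786 for diet in WT, and from 0 to 41 for the interaction. The 10 genes called ran from 0 to 5 for genotype in chow, from 0 to 2 in HFCF, from 3 to 4 for diet in livers labelled HuRHep-/- and from 0 to 1 for the interaction. The other targets called ran from 1 to 5 in chow, from 0 to 7 in HFCF and from 0 to 1 for the interaction, the latter without HFCF WT liver 3. Of the 24 calls named by rule for other genes, 13 held without any one liver. Among the other 11, *Ucp2*, *Pex11a* and, in WT livers, *Fabp4* were lost in 5 of 6 such fits, *Acaa1b* in 4, *Retsat*, *Acsl1*, *Eci2*, *Ppara* and *Ppargc1a* in 3 and *G0s2* in 1. RLE and upper-quartile factors moved the median of all genes by less than the 0.1 that would call for recentring.

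Livers share replicate numbers 1 to 3 across groups. The deviations of same-numbered livers correlated at -0.03 to 0.11 between genotypes in chow and at 0.09 to 0.19 in HFCF. Differently numbered livers correlated at -0.13 to 0.13 in chow and at -0.12 to 0.02 in HFCF, where all same-numbered pairs were thus higher. The main fits did not take the numbers as pairs, and whether same-numbered livers share an origin was not tested. With the number as a replicate block, 225 genes in chow and 764 in HFCF were called for genotype, and 2 and 3 of the 10 genes.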
